A study of Glycine max with 6 samples.

Results

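The genes described here encode the enzymes of the last steps of ethylene synthesis: Glyma08g02130, the soybean match of the *Arabidopsis* ACC synthase ACS6, Glyma01g00700, the match of ACS7, and Glyma06g12340, a match of a putative ACC oxidase (AT1G77330). These 3 gene IDs, each with 1 probe, are among the 66184 gene IDs on the array. They were picked by gene ID with the drought response of these same leaves already known, so their own changes are described without a test. In drought-stressed V6 leaves, the ACS6 match was 13.2-fold higher and the ACC oxidase match 13.4-fold lower than in well-watered V6 leaves, while the ACS7 match differed by 1.01-fold.

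Drought-stressed plants were cv. Williams 82 soybeans, left without water for 6 days from the late vegetative V6 stage. By then soil moisture was 5% in the sample records and below 5% in the paper, which places the plants at beginning bloom. Well-watered plants of the same cultivar and stage were watered as usual. RNA of the trifoliate leaf at position 4 was measured with 1 Affymetrix soybean array per plant, in drought-stressed plants 1, 2 and 4 and in well-watered plants 14, 15 and 16. The plants grew 3 to a pot in a greenhouse, 4 biological repeats were grown per treatment and 3 were profiled, and which plants shared a pot is not given in the sources used here. The treatment protocol gives an age of 28 days at the start of the treatment, and the growth protocol gives 35 days for the V6 stage.

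Ethylene is a gaseous hormone that is best known for ripening, leaf senescence and abscission, and that many stresses induce. Plants make it from methionine by way of S-adenosylmethionine. ACC synthase turns S-adenosylmethionine into 1-aminocyclopropane-1-carboxylic acid (ACC), the step commonly regarded as limiting, and ACC oxidase turns ACC into ethylene with oxygen. Both enzymes are encoded by gene families whose members answer to different cues. The *Arabidopsis* names used here are the best matches that the study's annotation gives, and enzyme activity of the soybean proteins was not measured.

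Each value below is a log2 signal relative to the median of that probe over the 6 arrays, so it tells how plants differ but holds no absolute level. For this reason levels cannot be compared between genes, and the leaf identity of the samples could not be checked against marker genes. The centring has one visible effect. Where the groups do not overlap, the inner value of one group is the exact opposite of the inner value of the other. The values are also relative to the upper quartile of each array, as the authors set it. In a whole leaf, a lower signal from fewer cells of a type cannot be told apart from less RNA per cell. The array medians lay between -0.029 and -0.0042 in drought-stressed plants and between -0.097 and 0.13 in well-watered plants.

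For the first step of synthesis, Glyma08g02130 had log2 signals of 2.26, 1.53 and 2.33 in drought-stressed plants 1, 2 and 4, against -1.61, -1.91 and -1.53 in well-watered plants 14, 15 and 16. All drought-stressed plants lay above all well-watered plants, and the nearest plants of the groups were 3.07 log2 units apart. The means were 2.04 ± 0.44 in drought-stressed leaves and -1.69 ± 0.20 in well-watered leaves (SD, n = 3 plants each). The log2 fold change was 3.73 (standard error, SE, 0.23). Of all 66195 probes, 201 had a larger log2 fold change. *Arabidopsis* ACS6 is known as a stress-responsive ACC synthase whose protein is stabilised by phosphorylation through a MAP kinase cascade.

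For the other ACC synthase match the group means were close. *Arabidopsis* ACS7 is an isoform with a short C-terminus that lacks the phosphorylation sites of ACS6. Glyma01g00700 had log2 signals of 0.009, -0.23 and 0.11 in drought-stressed plants 1, 2 and 4, against 0.40, -0.009 and -0.54 in well-watered plants 14, 15 and 16. The groups overlapped fully, with every drought-stressed plant lying inside the range of the well-watered plants. The means were -0.035 ± 0.17 in drought-stressed leaves and -0.049 ± 0.47 in well-watered leaves (SD, n = 3 plants each), and the log2 fold change was 0.014 (SE 0.24). The standard error leaves room for a moderate change in either direction. Leaving out 1 plant at a time gave log2 fold changes from -0.23 to 0.24. Whether this probe gave a signal over background cannot be judged from centred values, so close means need not reflect steady expression.

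Among the well-watered plants, the signal of Glyma01g00700 was highest in plant 14 and lowest in plant 16, the same order as the medians of these arrays. With each array centred on its median, the values were 0.27, -0.038 and -0.44 in plants 14, 15 and 16, so most of the spread remained. The same order of these 3 plants was found for 35.4% of all probes in the deposited values and for 19.9% after this centring. Array quality weights, fitted over all probes and lower for arrays that depart more from their group, were 0.62, 2.13 and 0.40 for plants 14, 15 and 16. With these weights the log2 fold change of Glyma01g00700 was -0.071. The part of the array shift in the spread of this gene was not tested further.

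For the second step, Glyma06g12340 had log2 signals of -1.85, -1.91 and -1.49 in drought-stressed plants 1, 2 and 4, against 2.05, 2.45 and 1.49 in well-watered plants 14, 15 and 16. All drought-stressed plants lay below all well-watered plants, with 2.97 log2 units between the nearest plants. The means were -1.75 ± 0.23 in drought-stressed leaves and 2.00 ± 0.49 in well-watered leaves (SD, n = 3 plants each). The log2 fold change was -3.75 (SE 0.25), and 112 probes had a lower one. For this gene the well-watered plants differed more among themselves than the drought-stressed plants did, whereas for the ACS6 match the drought-stressed plants differed more.

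**Figure D1:**
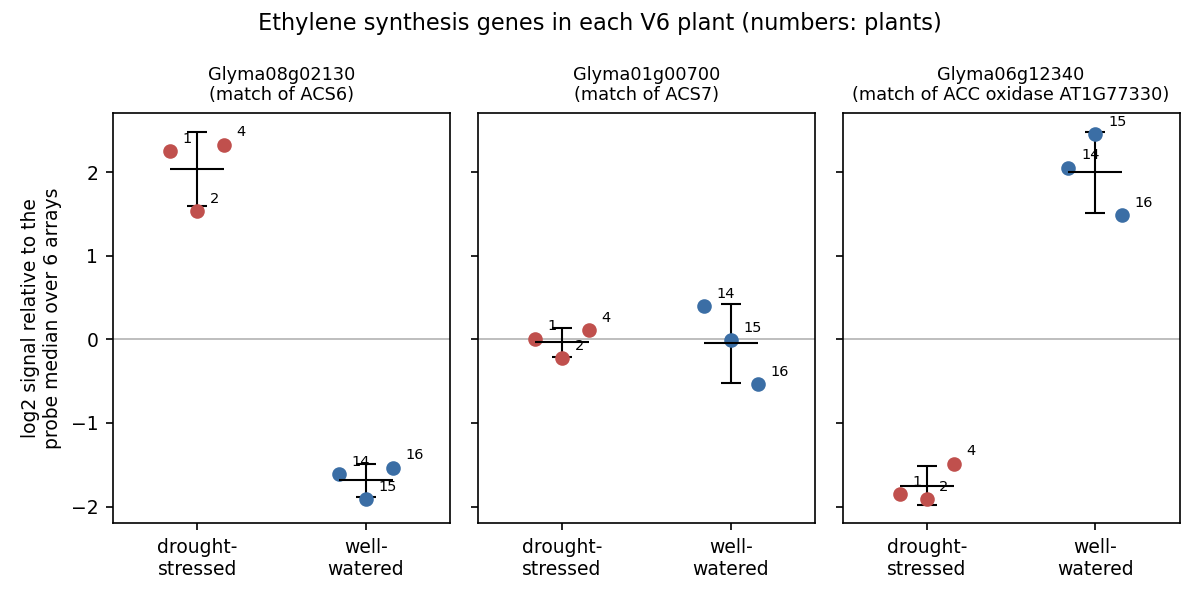
Log2 signal of the ACS6 match, the ACS7 match and the ACC oxidase match relative to each probe's median (vertical axis) in drought-stressed and well-watered plants, with 1 point per plant, the plant number beside it, and bars for the mean and SD (n = 3). The ACS6 match was higher by 3.73 and the ACC oxidase match lower by a log2 fold change of -3.75 in drought-stressed leaves, while the groups overlapped for the ACS7 match.

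The scatter between plants of one group was of similar size for the 3 genes. The pooled SD within groups was 0.34 for the ACS6 match, 0.35 for the ACS7 match and 0.38 for the ACC oxidase match, against a median of 0.23 over all probes. All 3 genes were thus more variable between plants than the median probe, and 20.8%, 18.6% and 14.8% of all probes had a larger pooled SD. None of the 3 probes shared its 6 values with another probe. Over all probes, the groups did not overlap for 31.3%, with the drought-stressed plants above for 14.4% and below for 16.9%. An absolute log2 fold change larger than that of the ACS6 match was found for 0.479% of all probes, and one larger than that of the ACC oxidase match for 0.464%.

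The steps of synthesis were then set against each other within each plant. The signal of the ACS6 match minus that of the ACC oxidase match was 4.10, 3.44 and 3.82 in drought-stressed plants 1, 2 and 4, against -3.67, -4.37 and -3.02 in well-watered plants 14, 15 and 16. It averaged 3.79 ± 0.33 in drought-stressed leaves and -3.68 ± 0.67 in well-watered leaves (SD, n = 3 plants each). The difference between the log2 fold changes of the genes was 7.47, which is a 177-fold shift in the balance of their signals. This size holds for this pair of genes, which was picked with its changes known. The other 2 ACC oxidase matches examined fell less, with log2 fold changes of -1.92 and -1.69. Since both values come from 1 array, a shift of the whole array cancels in this difference.

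The same comparison with the ACS7 match rested on the second step alone. The signal of the ACS7 match minus that of the ACC oxidase match was 1.86, 1.68 and 1.60 in drought-stressed plants 1, 2 and 4, against -1.66, -2.46 and -2.03 in well-watered plants 14, 15 and 16. The means of this difference were 1.71 ± 0.13 in drought-stressed leaves and -2.05 ± 0.40 in well-watered leaves (SD, n = 3 plants each). The difference between the log2 fold changes was 3.76, close to the size of the change in the ACC oxidase match itself. Between the ACC synthase matches, the ACS6 match minus the ACS7 match gave 2.25, 1.76 and 2.22 in drought-stressed plants, against -2.01, -1.90 and -0.996 in well-watered plants.

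**Figure D2:**
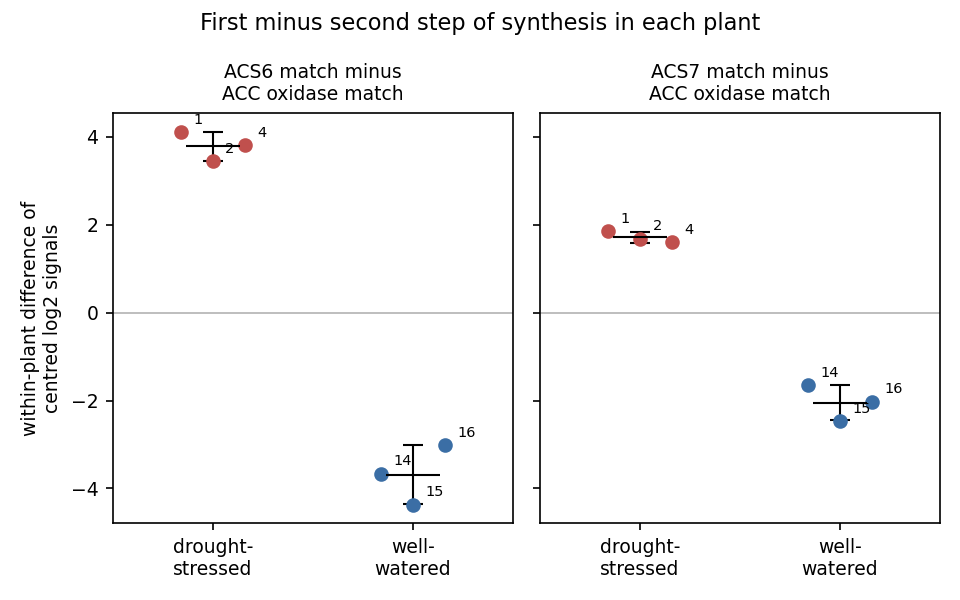
Within-plant difference between the centred log2 signals of an ACC synthase match and the ACC oxidase match (vertical axis), with the ACS6 match on the left and the ACS7 match on the right, 1 point per plant and bars for the mean and SD (n = 3). The drought-stressed plants lay above the well-watered plants in both, by 7.47 and 3.76 on average. The genes were picked with their changes known.

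Other genes of the pathway were tested with limma over all probes and called where the adjusted p was under 0.05 and the change at least 2-fold, which 9.46% of all probes passed, 4.33% higher and 5.14% lower in drought-stressed leaves. Of 34 other genes annotated to ethylene synthesis or response, 11 were upregulated, 21 were downregulated and 2 were not called. The median log2 fold change of the 34 was -1.48, against -0.05 over all probes. The 32 called genes come from the ethylene section of the study's hormone list, which was itself chosen for changes of at least 2-fold in these samples. Their number and the median of the 34 are therefore not independent evidence, and neither can be read against all probes. The 2 genes from outside that list had a median log2 fold change of -0.505, and neither was called. The annotation used here covers only part of the array, chiefly that list and some genes of chromosome 1, so further matches of these enzymes and factors on the array were not analysed here. At the same thresholds the test given in the methods called the same number, 32, all of them from that list. The study used this test on these same samples and listed genes with significant changes. This count is therefore not a separate check, and it cannot be read against the 5.75% of all probes that this test called.

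Glyma11g03070, the match of ACS10, was downregulated. It comes from the ethylene section and was listed for its change in these samples, so its adjusted p is not separate evidence. ACS10 belongs to the ACC synthase family by sequence, although the *Arabidopsis* protein is known as an aminotransferase without ACC synthase activity. The log2 signals of Glyma11g03070 were -0.63, -0.97 and -1.16 in drought-stressed plants and 0.76, 0.84 and 0.63 in well-watered plants. The groups did not overlap, which was so for 31.3% of all probes, 16.9% with the drought-stressed plants below. The log2 fold change was -1.66 (SE 0.18, limma adjusted p = 1.5e-04). The 3 ACC synthase family genes examined here thus had log2 fold changes of 3.73 (ACS6 match), 0.014 (ACS7 match) and -1.66 (ACS10 match).

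The ethylene section lists 2 other ACC oxidase matches, chosen for their changes, and both were downregulated. Glyma04g42460, which matches the same *Arabidopsis* gene as Glyma06g12340, had log2 signals of -0.89, -0.89 and -1.20 in drought-stressed plants, against 0.93, 0.96 and 0.89 in well-watered plants. Its log2 fold change was -1.92 (SE 0.17, limma adjusted p = 3.0e-05). Glyma02g43560 is the match of ACO4, also named ethylene-forming enzyme. It had log2 signals of -0.58, -0.58 and -1.002 in drought-stressed plants and 0.58, 0.98 and 1.36 in well-watered plants, with a log2 fold change of -1.69 (SE 0.23, limma adjusted p = 5.4e-04). The drought-stressed plants lay below the well-watered plants for both genes, as for 16.9% of all probes. Since both genes were listed for their change, this cannot be read against that share.

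Glyma06g12340 had the most negative log2 fold change of the 3 ACC oxidase matches examined. Its signal minus that of Glyma04g42460 was -0.96, -1.02 and -0.28 in drought-stressed plants 1, 2 and 4, against 1.12, 1.49 and 0.60 in well-watered plants 14, 15 and 16. The difference between the log2 fold changes was -1.83, and the groups did not overlap. Against Glyma02g43560 the difference was -2.06. These differences are given as a description, since Glyma06g12340 was chosen for its change. Drought-stressed plant 4 and well-watered plant 16 had the differences nearest to 0 in both comparisons.

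ETO1 marks some ACC synthase proteins for degradation in *Arabidopsis*. Its match Glyma01g31170 was not called, with log2 signals of 0.079, -0.044 and -0.24 in drought-stressed plants, against 0.007, -0.007 and 0.38 in well-watered plants. The groups overlapped, and the log2 fold change was -0.19 (SE 0.18, limma adjusted p = 0.60). This gene and Glyma01g39540 were the only genes of the 34 from outside the study's hormone list.

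Ethylene receptors hold the response in check until they bind the hormone. Both receptor matches examined come from the ethylene section and were listed for their change in these samples. Their adjusted p-values are therefore not separate evidence. Glyma19g40090, the match of the receptor ERS1, had log2 signals of -0.72, -0.59 and -0.51 in drought-stressed plants, against 0.56, 0.87 and 0.51 in well-watered plants. It fell, with a log2 fold change of -1.26 (SE 0.17, limma adjusted p = 6.1e-04). Glyma09g00490, the match of ETR1, had log2 signals of -0.69, -0.39 and -0.53 in drought-stressed plants, against 0.44, 0.58 and 0.39 in well-watered plants. Its log2 fold change of -1.01 (SE 0.16, limma adjusted p = 0.0018) passed the fold threshold narrowly. It did not pass with arrays centred on their medians (-0.97), with quantile normalization (-0.97), without drought-stressed plant 1 (-0.93) or without well-watered plant 15 (-0.95).

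Ethylene response factors (ERFs) are transcription factors, many of which act downstream of the receptors. Of 9 ERF and related genes, 5 were upregulated, 3 were downregulated and 1 was not called. All but Glyma01g39540 were listed for their change, so these counts cannot be read against the 9.46% called over all probes. The largest rises were those of Glyma10g00980, a match of the activator ERF1, at 3.59 (SE 0.31, limma adjusted p = 3.2e-05), and of Glyma12g13320, a match of the repressor ERF9, at 2.34 (SE 0.17, limma adjusted p = 1.0e-05). The largest falls were those of Glyma10g04210, which also matches ERF1, at -2.91 (SE 0.17, limma adjusted p = 2.6e-06), and of Glyma10g23460, at -2.81 (limma adjusted p = 8.4e-06). The listed matches of ERF1 were thus found in both directions, and the 4 listed matches of ERF9, each chosen for its change, were upregulated. Glyma01g39540, a match of CEJ1, was under the fold threshold at -0.82 (limma adjusted p = 0.0079). Of the other ethylene-listed genes, Glyma12g34490, described as an ethylene-responsive protein, and Glyma19g40330, a universal stress protein, fell, with log2 fold changes of -1.49 and -2.03.

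ACC oxidase belongs to the large family of 2-oxoglutarate-dependent oxygenases, although it does not itself use 2-oxoglutarate. The remaining 17 genes of the ethylene section, also listed for their change, are other members of this family. Of these genes, 6 were upregulated and 11 downregulated. They include matches of enzymes that act on other hormones, among them Glyma07g03810, a match of a gibberellin 3-oxidase, which fell with a log2 fold change of -3.18. The largest rises were those of Glyma18g50870, a match of AT5G24530 (5.16, limma adjusted p = 4.0e-07), and Glyma01g09360, a match of AT1G17020 (3.35, limma adjusted p = 4.0e-06). The largest falls were those of Glyma06g14190, also a match of AT5G24530 (-3.66, limma adjusted p = 6.0e-06), and Glyma05g26830, also a match of AT1G17020 (-3.51, limma adjusted p = 2.3e-06). Listed matches of each of these *Arabidopsis* genes were thus found in both directions. Together with the ACS6 match and the ACC oxidase match, the ethylene section holds 34 genes, 12 higher and 22 lower in drought-stressed leaves. By log2 fold change the ACS6 match ranked 2 among the 12 higher genes and the ACC oxidase match ranked 1 among the 22 lower genes. The ACS6 and ACC oxidase matches were picked with their changes known, and the section was listed for change, so these places are only a description. They are also not firm. Glyma10g00980 passed the ACS6 match without drought-stressed plant 1 (3.67 against 3.62) and without well-watered plant 14 (3.94 against 3.76). Glyma06g14190 had a lower log2 fold change than the ACC oxidase match without drought-stressed plant 2 (-3.86 against -3.67), well-watered plant 14 (-3.82 against -3.72) or well-watered plant 15 (-3.71 against -3.52).

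**Figure D3:**
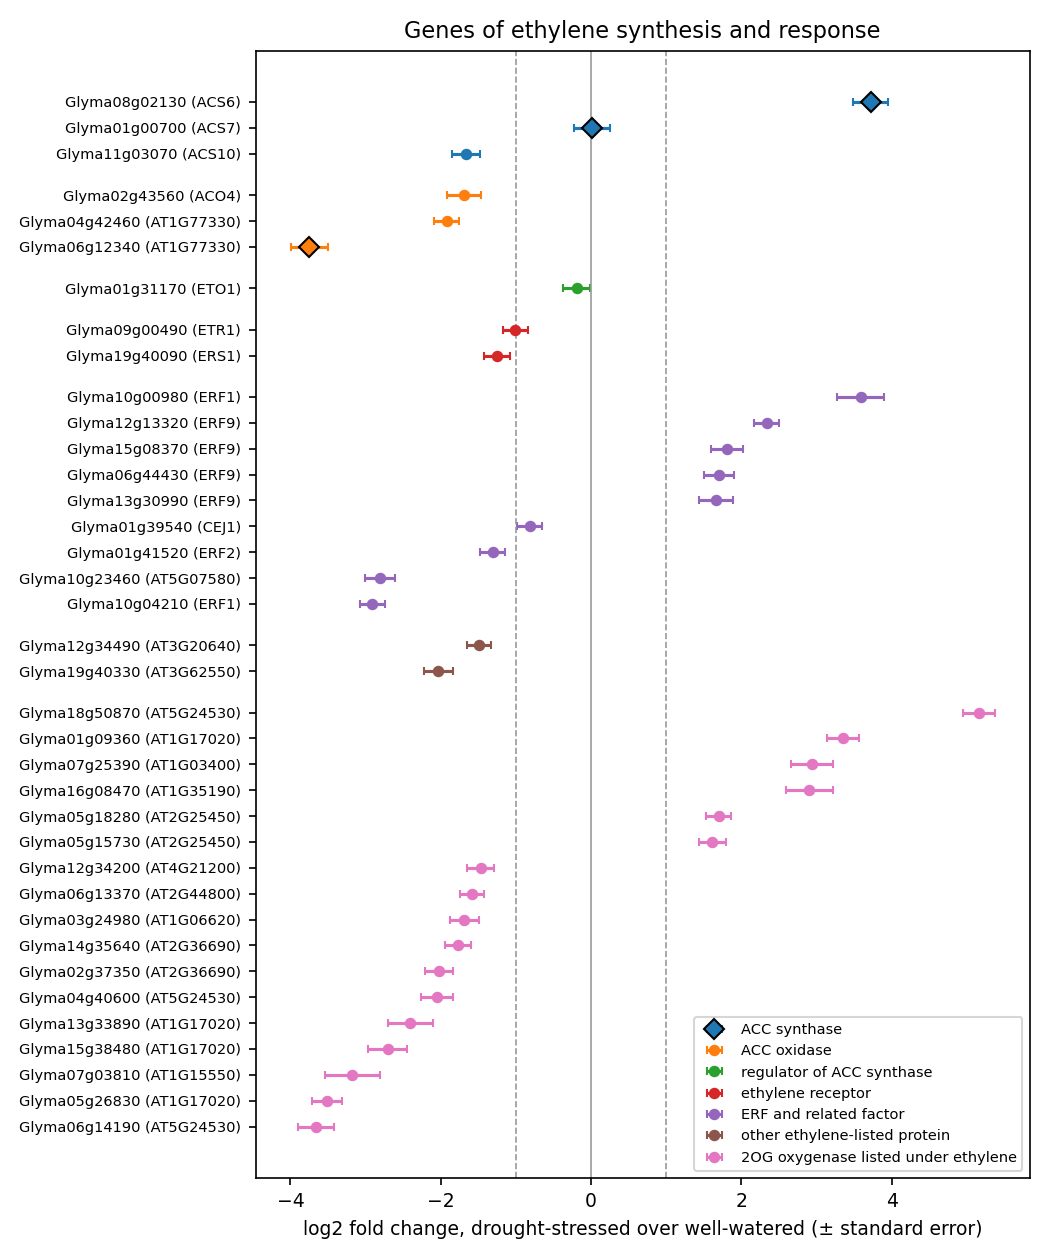
Log2 fold change, drought-stressed against well-watered leaves (horizontal axis, bars are standard errors from limma) for the 3 ethylene synthesis genes (diamonds) and the 34 other genes (circles), grouped by role, with dashed lines at the 2-fold threshold. The log2 fold changes of the 3 ACC synthase family genes examined ran from 3.73 to -1.66, and those of the 3 ACC oxidase matches examined from -1.69 to -3.75.

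The gene IDs follow the order along the chromosome, and the numbering places the ACS6, ACS7 and ACC oxidase matches on chromosomes 8, 1 and 6. The gene IDs next to them were examined to see whether a change extended over neighbours. Beside the ACS6 match, Glyma08g02120 was not called, with a log2 fold change of 0.037 (SE 0.22). Glyma08g02140 was under the fold threshold at 0.64 (SE 0.19, limma adjusted p = 0.048), and Glyma08g02150 had a log2 fold change of -0.12. Glyma08g02110 changed in the opposite direction to the ACS6 match. Its log2 signals were -1.20, -1.54 and -1.33 in drought-stressed plants, against 1.20, 2.06 and 1.34 in well-watered plants, with a log2 fold change of -2.88 (SE 0.23, limma adjusted p = 2.1e-05). This gene is outside the part of the annotation used here.

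Around the ACC oxidase match, Glyma06g12320, Glyma06g12330, Glyma06g12350 and Glyma06g12360 had log2 fold changes of -0.14, 0.093, 0.52 and 0.33, and none was called. Around the ACS7 match, Glyma01g00680, Glyma01g00690, Glyma01g00710 and Glyma01g00720 had log2 fold changes of 0.077, -0.34, -0.36 and 0.25, and none was called either. Glyma01g00690 is described as a match of an arginine methyltransferase and Glyma01g00710 as a match of a phospholipase. Of the 12 neighbours, 1 was called, a share near the 9.46% of all probes.

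**Figure D4:**
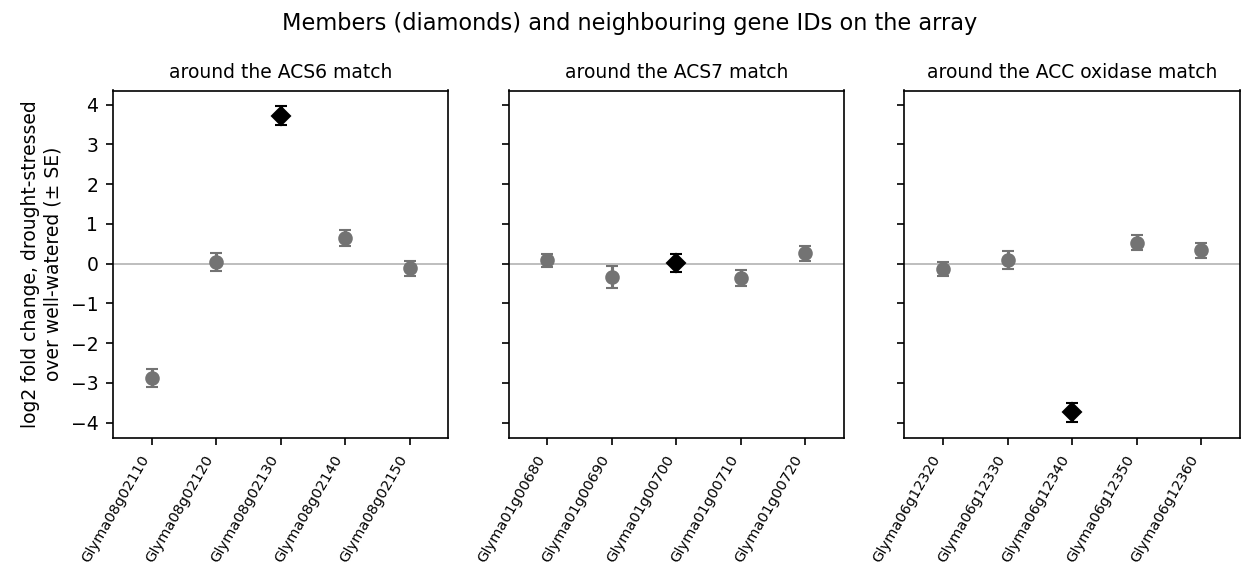
Log2 fold change, drought-stressed against well-watered leaves (vertical axis, bars are standard errors from limma) for the 3 ethylene synthesis genes (diamonds) and the gene IDs on either side of each on the array (circles). Of the 12 neighbours, Glyma08g02110 was called, at -2.88.

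The genes whose 6 values were nearest to those of each enzyme gene were found by the root mean square (RMS) difference over the 6 arrays. For the ACS6 match they were Glyma13g29350, Glyma08g44030 and Glyma12g05320, with RMS differences of 0.18, 0.18 and 0.20 log2 units. Glyma13g29350 had log2 signals of 1.97, 1.69 and 2.27 in drought-stressed plants and -1.69, -1.70 and -1.71 in well-watered plants, so that plant 2 was the lowest drought-stressed plant for this gene too. For the ACC oxidase match they were Glyma10g36990, Glyma18g02910 and Glyma05g36290, at 0.17, 0.22 and 0.23. Glyma10g36990 had log2 signals of -1.50, -1.79 and -1.48 in drought-stressed plants, against 2.02, 2.67 and 1.48 in well-watered plants, with the highest value in plant 15 as for the ACC oxidase match. For the ACS7 match the nearest genes were Glyma12g36850, Glyma11g21470 and Glyma06g14450, at 0.032, 0.037 and 0.043, and their log2 fold changes lay between -0.004 and 0.007. Because the genes were chosen for nearness in these same 6 values, a shared order of plants is not a separate result. Small distances are easier to reach for genes with small differences between plants. These 9 genes are outside the part of the annotation used here.

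**Figure D5:**
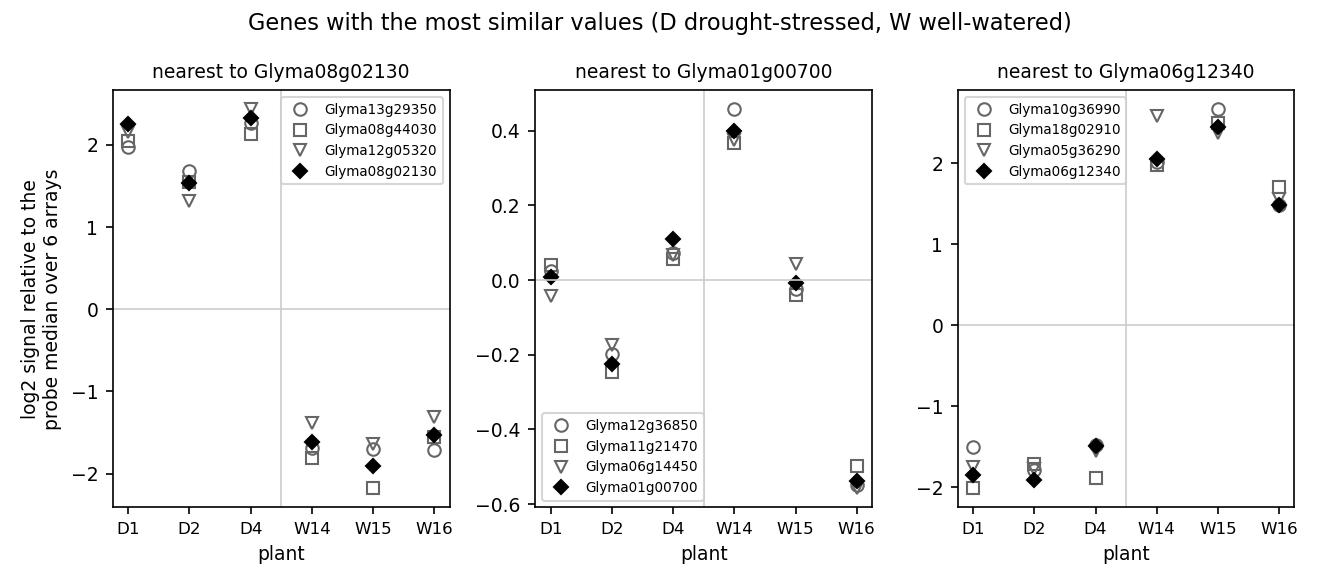
Log2 signal relative to each probe's median (vertical axis) in the 6 plants (horizontal axis, D for drought-stressed and W for well-watered) for each ethylene synthesis gene (filled diamonds) and the 3 genes with the smallest RMS difference from it (open symbols). The vertical scale differs between the panels, and the values of the ACS7 match and its nearest genes stayed between -0.56 and 0.46.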

How the data were processed

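Leaf RNA was measured on 6 Affymetrix arrays, 3 from drought-stressed and 3 from well-watered plants. According to the methods, probe signals were summarised by RMA to gene level without normalization in Affymetrix Expression Console, exported as log2, and shifted to the upper quartile of each array in GeneSpring. In the deposited log2 values each probe is also centred on its median across the 6 arrays. The authors' deposited comparison (fold changes and p-values) was used only for the gene ID of each probe. No genome build for coordinates is given in the sources used here.

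All 66195 probes were fitted in limma 3.58.1 (lmFit, eBayes; R 4.3.3) without a filter, with Benjamini-Hochberg adjustment across the whole array. A gene was called where the adjusted p was under 0.05 and the change at least 2-fold. Residual degrees of freedom were 4 and prior ones 5.93. Log2 fold changes had a median standard error of 0.19 over all probes. The number of arrays limits the precision, and an exact permutation test of 3 against 3 cannot give a p under 0.1. P-values measure the spread between plants, which may share pots. The code was tested on simulated data.

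The genes, lists and naming rule were chosen with earlier results of these data known. The rule names the enzyme genes, every gene of the synthesis, regulator and receptor lists, the 2 largest rises and falls called in each other list, the 2 gene IDs on either side of each enzyme gene, and the 3 genes nearest to each in values. Families by product description and marker lists could not be built, since the descriptions used here cover part of the array and matched none of their genes or could not be linked to the gene IDs. Sequences of these genes were not used here. The alternatives were the methods' t-test, arrays centred on their medians, quantile normalization, array quality weights, a robust prior, other thresholds, identical probes counted once, and each plant left out in turn.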

Additional observations from a re-analysis of the deposited data

How the results depend on the processing

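The log2 fold changes of the enzyme genes and the differences between the steps moved by less than their pooled SD within groups under every alternative run for them. Without each plant in turn, the ACS6 match ranged from 3.58 to 3.98, the ACS7 match from -0.23 to 0.24, the ACC oxidase match from -4.00 to -3.52, and the ACS6 match minus the ACC oxidase match from 7.13 to 7.80. Of the 34 other genes, 11 were higher and 20 or 21 lower in these fits. Over all probes, the methods' t-test called 1808 higher and 2000 lower, and without a fold minimum limma called 5131 higher and 5706 lower, against 2864 and 3401. The sign of 2 neighbours that were not called depended on the plants used: leave-one-out values ran from -0.095 to 0.25 for Glyma08g02120 (-0.095 without drought-stressed plant 1, -0.081 without well-watered plant 15 and -0.056 without plant 16) and from -0.15 to 0.23 for Glyma06g12330 (-0.007 without drought-stressed plant 1 and -0.15 without well-watered plant 16). The cause was not tested. No paired analysis was possible because the groups share no plant numbers. Signal over background cannot be judged from centred values.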
